A study of Drosophila melanogaster with 2 samples.

Results

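The STAT92E ChIP-Seq peaks at pointed (pnt, CG17077) and kayak (kay, also DFos, CG33956) were examined in adult Drosophila intestines. The members are the intervals that accompany the study for these genes, 4 for pnt and 3 for kay. All 7 were found in the deposited list with the same chromosome, start and end, and the list holds 1487 peaks in all. The data consist of 1 STAT92E ChIP library and 1 input library without antibody. Both came from adult flies of the W1118 background and the genotype esgts>Upd and STAT92E, kept at 29°C for 10 days. In these flies esg-Gal4 with Gal80ts drives the JAK/STAT ligand Upd and STAT92E itself in the progenitor cells. For the ChIP assay, about 400 midguts were pooled, with hindgut and Malpighian tubules left out, and STAT92E was precipitated with an antibody raised in mouse. The input has the same genotype, so no library without ectopic Upd and STAT92E was compared here. The chromatin was that of the whole dissected tissue, not of sorted progenitor cells, and the list holds no expression values with which the tissue label could be checked.

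Both genes encode transcription factors at the end of other signaling pathways. Pnt is an ETS-domain factor that mediates the transcriptional output of EGFR/Ras/MAPK signaling. Kay is the Drosophila Fos protein, which pairs with Jun-related antigen as AP-1 and acts downstream of JNK signaling. In the midgut, the EGFR and JNK pathways act with the JAK/STAT pathway in proliferation of intestinal stem cells and in the response to damage. In the JAK/STAT pathway, Upd binds the receptor Domeless, the kinase Hopscotch is activated and STAT92E enters the nucleus to bind its sites in DNA. Binding near a gene does not show that the gene is regulated.

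All 7 peaks are on chromosome arm 3R, and the published annotation places all of them in introns. Positions are those of the list, in build dm3. The genes are separate clusters, and no other listed peak lies between the peaks of either gene. The first pnt peak, called the intron 6 peak here, is at chr3R:19122470-19122789 and is 320 bp long. The second, called the single intron 3 peak, is at chr3R:19142670-19142899 and is 230 bp long. The other pnt peaks also lie in intron 3 and form a close pair, with the lower peak at chr3R:19162840-19163049 (210 bp) and the upper peak at chr3R:19163260-19163379 (120 bp). Thus the pnt peaks spanned 40910 bp, in steps of 19880 bp and 19940 bp between peaks, and then only 210 bp within the pair. The nearest other peaks of the list were 156780 bp below and 201580 bp above.

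The kay peaks were closer to each other and all lie in intron 1. A pair was again present, with the lower peak at chr3R:25601530-25601699 (170 bp) and the upper peak at chr3R:25602170-25602439 (270 bp), separated by 470 bp. The third, called the single kay peak, is at chr3R:25608970-25609289 (320 bp), a further 6530 bp away. The 3 peaks spanned 7760 bp, and the nearest other listed peaks were 91930 bp below and 278760 bp above. A neighbour within 500 bp was therefore found for 4 of the 7 peaks, against 2.66% of the 1202 peaks on the chromosome arms. Such a neighbour was also found for 6 of the 52 other published intervals, and for none of the 8 of these that are at Socs36E, dome and Stat92E. Most sonicated fragments were between 200 and 400 bp long. The gap of the pnt pair (210 bp) lies within this range, and that of the kay pair (470 bp) is beyond it. Whether fragments of one site gave reads to both peaks of a pair was not tested.

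**Figure D1:**
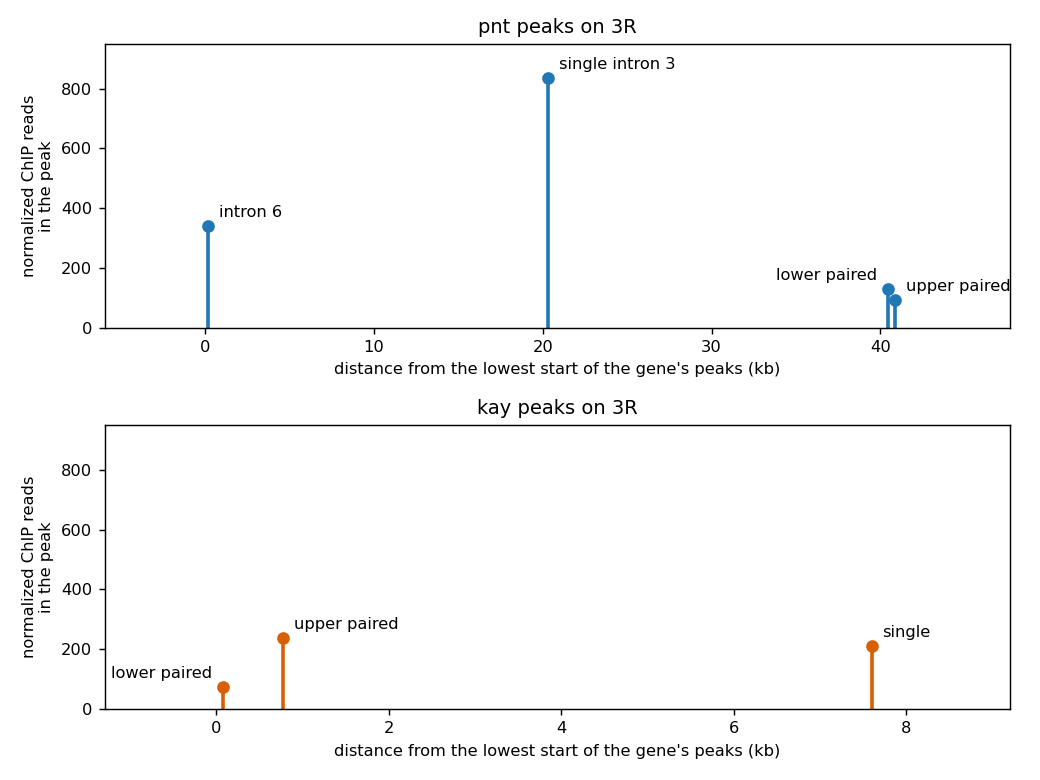
STAT92E ChIP peaks at pnt (upper panel) and kay (lower panel). The x axis is the distance in kb from the lowest start among the peaks of the gene, and the y axis is the number of normalized ChIP reads in each peak. The single intron 3 peak of pnt is the highest with 834.6 reads, and each gene has 1 close pair of peaks.

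When arm peaks within 20 kb of each other were joined, the 4 pnt peaks formed 1 group and the 3 kay peaks another. Of the 932 groups formed in this way, 48 (5.15%) held 3 or more peaks and 13 held 4 or more. On 3R, 14 groups held 3 or more peaks. The pnt group depends on the distance, since its wide gaps were just under 20 kb. With 5 kb, only the pairs of pnt and kay remained joined. The 5 Socs36E peaks, with gaps of 740 to 4250 bp between them, join at 20 kb and at 5 kb. The Stat92E peaks are separated by 7490 bp, with a further listed peak 14090 bp above, and join at 20 kb only. Grouping is thus not particular to pnt and kay, which were also published with 4 and 3 peaks. The joining distances were chosen after the list had been examined.

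The values for each peak are normalized reads of both libraries, as deposited. The column marked I was taken as the input library and the column marked M as that of the mouse antibody, since the labels do not spell this out. On the steps of these columns, taking 16 steps as a whole read, an input read weighed 0.582 of a ChIP read. On this reading, 3 input reads are 1.75 normalized reads. Below, an input at or under this floor gives only a lower bound of the fold, in which the input is replaced by its upper Poisson limit (one-sided, 95%) and never by less than 3 reads. The ChIP reads are not varied in this bound. Intervals are exact 95% intervals of the whole-number reads and cover counting error only. With 1 library of each kind, there is no error between experiments and no test between conditions. Every peak of the list was selected by its high ratio of ChIP to input, and the published intervals are a selection from that list, so enrichment as such is not a finding for these genes.

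At pnt, the single intron 3 peak had the most ChIP reads. It held 834.6 normalized ChIP reads (interval 779 to 894) against 23.3 in the input, which is 35.9-fold (26.1 to 50.6). The intron 6 peak held 341.6 ChIP reads (307 to 380) against 2.51 in the input, which is 136-fold (56.9 to 542). Thus the peak with 2.44 times as many ChIP reads had 9.28 times as many input reads, and the lower ratio. The ratio of the fold at the intron 6 peak to that at the single intron 3 peak was 3.80 (1.46 to 15.9), so they differed by more than counting error, although the higher value rests on 4.31 input reads.

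The paired pnt peaks were smaller. The lower peak held 128 ChIP reads (107 to 152) against 1.45 in the input, under the floor. Its lower bound was 31.3-fold, and its exact interval started at 29.8. The upper peak held 93.4 ChIP reads (75.1 to 114) against 2.04 in the input, which is 45.9-fold (15.1 to 150). Taken as 1 region, the pair held 221.6 ChIP reads and 3.49 input reads, which is 63.5-fold (28.8 to 175). This was 15.9% of the ChIP reads of the 4 pnt peaks, and the single intron 3 peak alone held 59.7%.

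At kay, the reads were spread more evenly. The upper paired peak held 237.5 ChIP reads (208 to 269) against 5.93 in the input, which is 40.1-fold (21.8 to 86.1). The single kay peak held 211 ChIP reads (183 to 241) against 2.65 in the input, which is 79.6-fold (30.6 to 226). The intervals of ChIP reads of these peaks overlap. The lower paired peak held 73.4 ChIP reads (57.2 to 91.8), fewer than any other of the 7, and 0.727 in the input. Its lower bound was 24.5-fold, and its exact interval started at 21.8. The pair together held 59.5% of the ChIP reads of kay, with 310.9 ChIP reads against 6.65 in the input, or 46.7-fold (26.8 to 98.4).

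**Figure D2:**
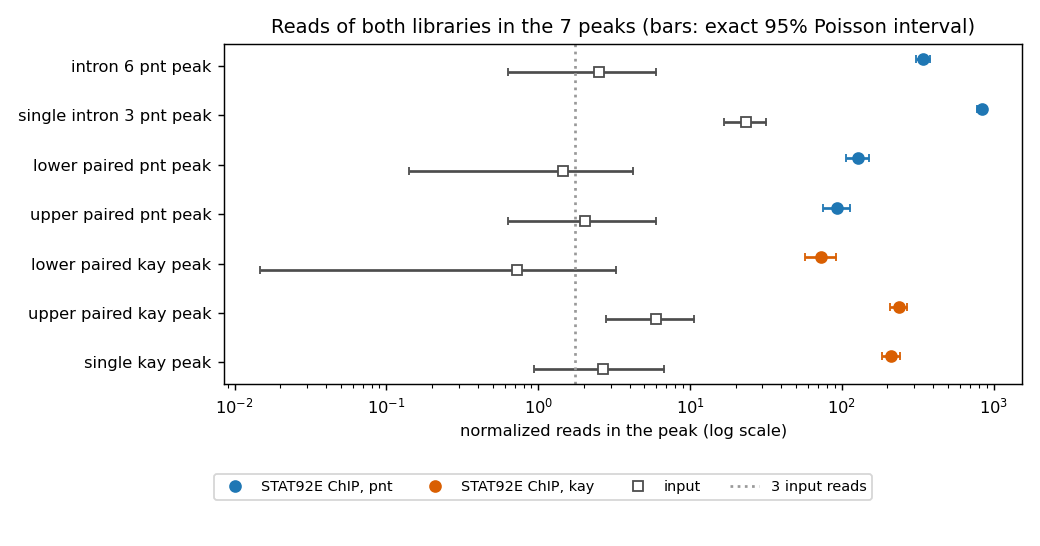
Normalized reads in the 7 peaks, on a log x axis, with the ChIP library as filled circles (blue for pnt, orange for kay) and the input library as open squares. Bars are exact 95% Poisson intervals and the dotted line marks 3 input reads (1.75 normalized reads). ChIP reads range from 73.4 to 834.6, and the inputs of the lower paired peaks of pnt and kay lie under the line.

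Across the 7 peaks, ChIP reads differed 11.4-fold between the highest and the lowest, and 8.40-fold per kb of peak. Per kb, the single intron 3 pnt peak again led with 3629 ChIP reads, followed by the intron 6 pnt peak with 1068. The other 5 had between 432 and 880 ChIP reads per kb, and the median of all listed peaks was 375. A fold with an input above the floor was available for 5 of the 7 peaks, in the order intron 6 pnt, single kay, upper paired pnt, upper paired kay and single intron 3 pnt. None of the 4 pairs of neighbours in this order differed beyond counting error. Of all 10 pairs among these peaks, 2 did, both with the intron 6 pnt peak as the higher, and the other of them, against the upper paired kay peak, only just (3.40, interval 1.02 to 15.9). These intervals were not adjusted for the number of pairs.

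Summed over peaks, pnt held 1398 ChIP reads against 29.3 input reads in 880 bp, and kay held 522 against 9.31 in 760 bp. The ChIP reads of pnt were thus 2.68 times those of kay, and 2.31 times per kb. Without the single intron 3 pnt peak, a comparison added after seeing the data, pnt held 563 ChIP reads, 1.08 times those of kay and 1.26 times per kb. With all peaks, the pooled folds were 47.8 for pnt (36.2 to 65.1) and 56.1 for kay (34.2 to 98.8). Their ratio was 0.851 (0.451 to 1.55), so a difference in either direction was not detectable at this depth. The ratio depended on the single intron 3 pnt peak, without which it was 1.67, a value for which no interval was computed. Among the 30 genes with published intervals, pnt was at position 3 and kay at position 6 by summed ChIP reads, and they were at positions 24 and 18 by pooled fold, in which genes with few input reads enter with a lower bound. Summed reads grow with the number of peaks, which was 4 for pnt and 3 for kay and ranged from 1 to 5 over these genes. Per kb of peak, pnt held 1588 ChIP reads and kay 687.

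**Figure D3:**
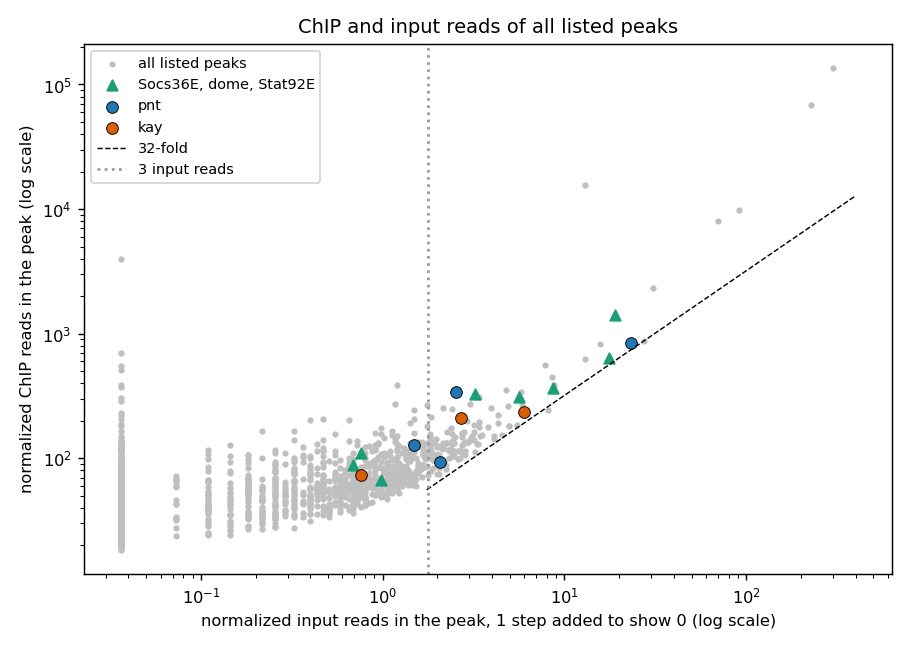
Normalized ChIP reads against normalized input reads for all 1487 listed peaks (grey), on log axes, with pnt (blue), kay (orange) and the peaks of Socs36E, dome and Stat92E (green triangles). 1 input step is added so that peaks with an input of 0 can be drawn; the dashed line is 32-fold and the dotted line 3 input reads. Of the 7 members, 5 lie to the right of the dotted line, and the lower paired peaks of pnt and kay lie to its left.

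In the whole list, the 7 peaks stood higher by number of ChIP reads than by the listed order. The list is ordered by the authors' test statistic, which follows the largest log2 ratio (ChIP over input) found within a peak. In this order the intron 6 pnt peak ranked 41 (2.76%), the lower paired pnt peak 161 (10.8%) and the single kay peak 329 (22.1%). The lower paired kay peak ranked 592, the single intron 3 pnt peak 984, the upper paired kay peak 1182 and the upper paired pnt peak 1328 (89.3%). Thus 1 of the 7 was within the first 148 peaks, which are 9.95% of the list. So were 15 of the 52 other published intervals, among them 2 of the 8 at Socs36E, dome and Stat92E. By normalized ChIP reads, 5 of the 7 were within the first 148, with the single intron 3 pnt peak at 10, the intron 6 pnt peak at 25, the upper paired kay peak at 44, the single kay peak at 49 and the lower paired pnt peak at 143. The background for this rule is again 9.95% by construction, and 24 of the 52 other published intervals also passed it, so a high number of ChIP reads is not particular to pnt and kay. The reads also depend on length, and the median length was 230 bp for the 7 peaks and 150 bp for the list. By ChIP reads per kb, the positions in chromosome order were 52, 10, 225 and 102 for pnt and 570, 79 and 176 for kay.

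The listed log2 ratios of the 7 peaks ranged from 4.95 to 6.60, with a median of 5.48 against 5.35 over all listed peaks. They were 6.60 at the intron 6 pnt peak, 6.05 at the lower paired pnt peak and 5.73 at the single kay peak. The others were 5.48 at the lower paired kay peak, 5.20 at the single intron 3 pnt peak, 5.06 at the upper paired kay peak and 4.95 at the upper paired pnt peak. In both pairs, the lower peak had the higher listed ratio. At kay this peak had fewer ChIP reads than its partner (73.4 and 237.5), and at pnt it had more (128 and 93.4). An FDR of 0 was listed for 5 of the 7 peaks, against 70.5% of all peaks, and the FDR never falls along the order of the list. The exceptions were the upper paired peaks of pnt, with 0.00202, and of kay, with 0.00158. The former is the largest FDR of the list, which 15% of all peaks share. The -log10 of the Poisson p was at the cap of 100 for 6 of the 7 peaks and 89.6 for the lower paired kay peak, and 27% of all peaks were at the cap.

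The input reads of each of the 7 peaks were above the median of the list, which was 0.218 normalized reads. The input was above 3 reads in 5 of the 7, against 8.88% of all listed peaks, 5 of the 8 peaks at Socs36E, dome and Stat92E, and 25 of the 52 other published intervals. Per kb, the single intron 3 pnt peak held 101 normalized input reads, the third highest value of the list and the second highest on 3R. The other 6 had 4.28 to 22.0 per kb, and the median of all listed peaks was 1.52. The part of this input in the number of ChIP reads was not tested. A fold or lower bound of at least 32, a log2 ratio of 5, was reached by 5 of the 7 peaks, against 28.7% of all listed peaks. How a low input is handled decides which peaks pass, and the 5 here are the peaks with an input above the floor. Among the 132 listed peaks with such an input, 98.5% reached 32-fold and the lowest fold was 30.4. Of the 1355 listed peaks with an input at or under the floor, 297 reached 32-fold as a lower bound, and neither of the members with such an input did. The fold over the whole peak was above the listed largest ratio in 4 of these 5 peaks, against 86.4% of the 132, and only at the single intron 3 pnt peak was it below (35.9 and 36.7).

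**Figure D4:**
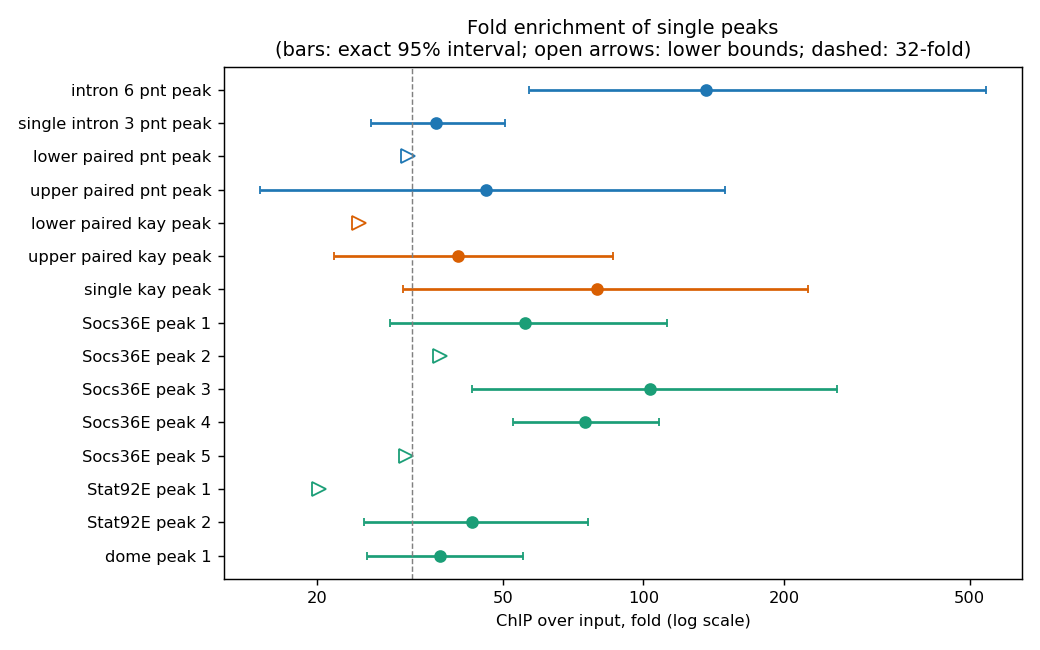
Fold of ChIP over input reads on a log x axis for the peaks of pnt (blue), kay (orange) and Socs36E, Stat92E and dome (green, numbered along the chromosome). Bars are exact 95% intervals, open arrows are lower bounds where the input is at or under 3 reads, and the dashed line is 32-fold. The intron 6 pnt peak has the highest value with 136-fold, and its interval of 56.9 to 542 overlaps those of most other peaks.

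The peaks of the feedback regulator Socs36E, the receptor gene dome and Stat92E itself, measured in the same libraries, were set beside those of pnt and kay. Their ChIP reads ranged from 67.2 to 1420, with a median of 320 over 8 peaks, and those of pnt and kay from 73.4 to 834.6, with a median of 211 over 7. The pooled fold was 59.3 (48.3 to 73.1) for the JAK/STAT genes and 49.8 (39.1 to 64.9) for pnt and kay. These intervals overlap. Summed ChIP reads at pnt (1398) were below those at Socs36E (2260) and above those at dome (644) and Stat92E (435), and those at kay (522) lay between dome and Stat92E. These sums cover 5 peaks at Socs36E, 1 at dome, 2 at Stat92E, 4 at pnt and 3 at kay. Per kb of peak, ChIP reads were 1588 at pnt, 687 at kay, 1883 at Socs36E, 2926 at dome and 1318 at Stat92E. By listed order, the best pnt peak at 41 was close to the best Socs36E peak at 30, while the best kay peak at 329 was ahead of the only dome peak at 891 and of the best Stat92E peak at 697. A best rank favours genes with more peaks. The other pnt peaks ranked 161, 984 and 1328, and the other kay peaks 592 and 1182.

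The summit, which is the position of the peak that the list gives as its top, lay 2.5 to 47.5 bp from the middle, except in the upper paired kay peak. Such distances were not counted over all listed peaks, whose median length is 150 bp, so they are not read as a trait of these peaks. The summit was 182 bp from the start in the intron 6 pnt peak, 107 bp in the single intron 3 peak, and 152 bp and 82 bp in the lower and upper paired pnt peaks. At kay it was 87 bp from the start in the lower paired peak and 112 bp in the single peak. In the upper paired kay peak the summit was only 2 bp from the start, on the side of its partner, and the largest ratio was listed 163 bp away from it. A summit within 10 bp of an end was listed for 15.7% of all peaks. At the intron 6 pnt peak the summit and the largest ratio were 3 bp apart, and in the other 5 peaks between 7 and 87 bp. The summits of the pnt pair were 350 bp apart and those of the kay pair 555 bp. In the lower paired kay peak, the right boundary given in the list was 10 bp below the left one, giving a listed boundary width of -9 bp. A negative width was listed for 4.03% of all peaks.

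**Figure D5:**
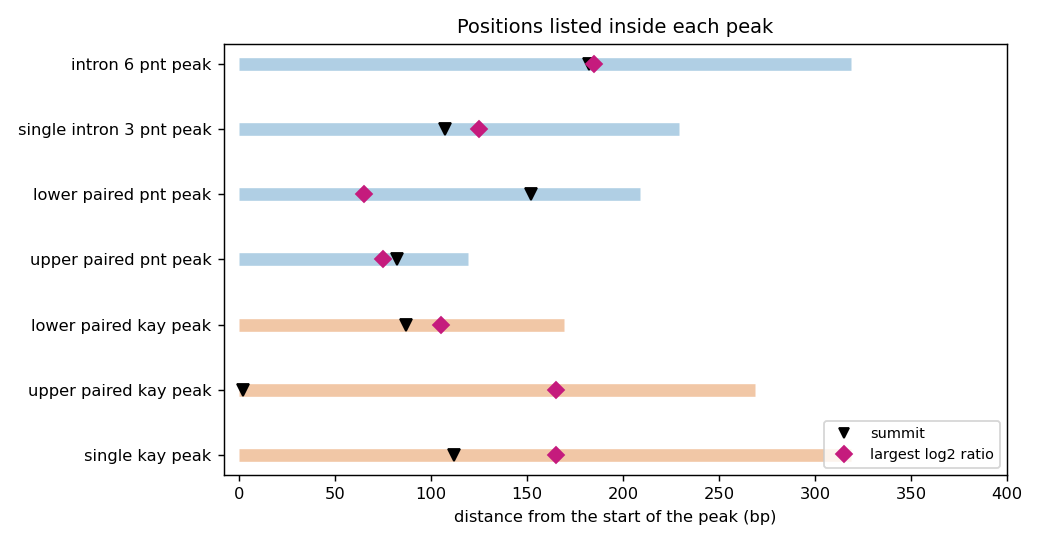
Positions listed inside each of the 7 peaks, as the distance in bp from the start of the peak, with bars for the extent of the peak (blue for pnt, orange for kay). Black triangles are summits and pink diamonds mark where the log2 ratio (ChIP over input) was largest. In the upper paired kay peak the summit is 2 bp from the start, while in the intron 6 pnt peak both positions are 3 bp apart.

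The published annotation of the intervals counts STAT92E motifs within 500 bp of each peak, in which TTC and GAA are separated by 2, 3 or 4 bases. These counts could not be repeated, because no genome of build dm3 was used here, and for the same reason no sequence is shown. At pnt the annotation gives 5 motifs at the lower paired peak, 3 at the upper paired peak and 1 at each of the others. At kay it gives 3 at the upper paired peak, 2 at the single peak and 1 at the lower paired peak. The windows within each pair overlap, so that a motif can be counted at both peaks, and the sum of 16 over the 7 peaks is an upper limit. The intron 6 pnt peak and the pnt peak with the most ChIP reads each have 1 annotated motif, while the 5 motifs are at a peak with 128 ChIP reads. The motif counts of the 7 peaks range from 1 to 5 with a median of 2. Those of the 52 other published intervals range from 0 to 11, also with a median of 2. How often windows of this length hold a motif was not counted. All 7 are placed in introns, as are 7 of the 8 peaks at Socs36E, dome and Stat92E and 32 of the 52 other published intervals.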

How the data were processed

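One ChIP library and one input library were sequenced, and the authors called 1 list of peaks on the pair. The submitters' processing notes name CASAVA 1.8, Bowtie and build dm3, and the peak caller and its settings are not given in the sources used here. Per the file headers, the deposited columns hold for each library the signal (normalized reads in a peak). For the ChIP and input libraries together, they hold the largest log2 ratio and the -log10 of the smallest Poisson p. They also hold an FDR (a p-value or q-value column whose computation is not given) and a test statistic, a score made by the authors. The log2 ratio, -log10 p, FDR and score are the authors' values. The depth of each sample is unknown, because total reads are not listed. ChIP values below 5000 lay on steps of 0.0625 and input values below 50 on steps of 0.0364, which gave the weight of one input read.

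Members were found by equal chromosome, start and end. Folds, lower bounds, exact Poisson and Clopper-Pearson intervals and the conditional interval of a ratio of folds were computed with scipy 1.17.1, pandas 2.3.3 and numpy 2.4.6 under Python 3.11.15, after reads were rounded to whole numbers for the intervals only, and were tested on simulated data. A fold of 32 was used as the threshold. All peaks of pnt and kay are named, with those of Socs36E, dome and Stat92E for comparison. Members, genes and tests were chosen with earlier results of these data known. Gene names were checked in Release 6 records. The alternatives were other rules of overlap, thresholds, a pseudocount, other orders and leaving out single peaks. Genes of the EGFR and JNK pathways other than pnt and kay were not looked up, since an annotation of dm3 was not used here.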

Additional observations from a re-analysis of the deposited data

How the results depend on the processing

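All 7 peaks were found under both other rules of overlap and with a -log10 Poisson p of at least 50, and 5 had an FDR of 0. Of all listed peaks, 70.5% had an FDR of 0, and the share past this p is not given here. With a pseudocount of 1 or with the listed ratio, every fold with an input above the floor stayed within its counting interval, and both lower bounds held. The number of peaks past 32-fold (5) was 6 with the pseudocount, and they were not the same peaks. The upper paired pnt peak fell to 31.1, while the lower paired peaks of pnt and kay, lower bounds before, were at 52.6 and 43.1. The share of all listed peaks past 32-fold with the pseudocount is not given here, so the 6 are not read as a result about these genes. All 7 peaks passed a fold of 20, and the median fold or lower bound of all listed peaks was 23.4. The best rank depended on the measure. For pnt it was 41 in the order of the list, 10 by ChIP reads, 10 by ChIP reads per kb and 9 among the 267 peaks of 3R. For kay it was 329, 44, 79 and 61. By the fold in the whole peak, an order added after seeing the data, they were 12 and 37. The ratio of the pooled folds of pnt and kay (0.851) was between 0.567 and 1.67 without single peaks. The value without the single intron 3 pnt peak, 1.67, lies outside the counting interval of the ratio with all peaks. An interval of 1.67 itself was not computed, so a shift beyond counting error is not shown. With the median of the peaks the ratio was 1.02, and 0.873 without the peaks at or under the floor, which was added after seeing the data. The number of arm groups with 3 or more peaks (48) fell to 9 with 5 kb as the joining distance and rose to 130 with 50 kb. The motif counts were not run, because no sequence was used here. No paired analysis was possible because there is a single library of either kind. The low input widens the intervals of the folds, and 6 of the 7 peaks hold fewer than 11 input reads.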
